A study of Mus musculus with 6 samples.

Results

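The cadherin superfamily and the alpha- and p120-type catenins were examined in a list of regions whose DNA methylation differed between normal livers and liver tumors. Members were all listed regions whose nearest transcription start site (TSS) belonged to a numbered cadherin (Cdh), a protocadherin (Pcdh), a Fat, Dchs, Celsr or Clstn gene, or a catenin gene of the Ctnna and Ctnnd types. No minimum was set on the difference beyond that of the list. They came to 203 of 14176 regions and 46 genes on 13 chromosomes. All tissue came from male C3H/HeN mice, an inbred strain prone to spontaneous liver tumors, at 74 weeks of age, taken from the unexposed F2 animals of a project on gestational arsenic. 3 normal livers were compared with 3 liver tumors that carried a Ha-ras mutation. Methylation was read by reduced representation bisulfite sequencing (RRBS), in which DNA is cut with MspI at CCGG and unmethylated cytosine is converted so that it reads as T. Each region carries 1 mean difference, tumor minus normal, in percentage points of methylation, so no spread between animals can be given for any value. A region is called a loss (hypomethylated in tumors) or a gain (hypermethylated in tumors) by the sign of that difference. The table holds no level of any gene, so the tissue label could not be set against marker genes. In bulk tissue a change in the mixture of cells and a change of methylation within cells cannot be told apart.

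Cadherins are calcium-dependent adhesion proteins of the cell surface. Classical cadherins bind a cadherin of the same kind on the neighbouring cell, and their tails hold p120-type catenins and beta-catenin, which alpha-catenins link to actin. Protocadherins have related outer domains but no catenin-binding tail of the classical kind, and many of them give neurons their surface identity. In liver epithelium, E-cadherin and N-cadherin hold hepatocytes together.

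The sequences below are the plus strand of mouse build GRCm38, which is mm10, from RefSeq. They are the 6 largest losses, the 2 gains near Cdh15 and the 2 losses closest to the TSS of a numbered cadherin, shown because they mark the ends of the range of the numbered cadherins and the largest losses of the protocadherins. Capitals mark the bases of CpG dinucleotides, the sites that carry the methylation that was measured, and a lone capital at an edge belongs to a CpG that runs past it.
Cdh9 loss, chr15:15168832-15168982: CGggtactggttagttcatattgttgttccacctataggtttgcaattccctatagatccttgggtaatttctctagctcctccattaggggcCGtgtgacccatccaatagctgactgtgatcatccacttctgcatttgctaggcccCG
Cdh19 loss, chr1:110708319-110708383: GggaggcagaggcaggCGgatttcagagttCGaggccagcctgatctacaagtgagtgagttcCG
Cdh13 loss, chr8:118537577-118537733: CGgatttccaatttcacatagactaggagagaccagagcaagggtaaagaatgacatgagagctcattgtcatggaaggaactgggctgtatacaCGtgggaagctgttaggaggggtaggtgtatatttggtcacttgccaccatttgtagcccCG
Cdh1 loss, chr8:106608221-106608520, first bases of the region: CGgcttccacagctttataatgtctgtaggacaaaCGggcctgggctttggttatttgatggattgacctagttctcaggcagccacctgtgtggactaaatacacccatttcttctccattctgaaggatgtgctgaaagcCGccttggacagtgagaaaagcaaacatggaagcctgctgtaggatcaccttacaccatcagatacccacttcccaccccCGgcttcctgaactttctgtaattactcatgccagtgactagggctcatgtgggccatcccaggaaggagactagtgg
Pcdh20 loss, chr14:88816711-88816734: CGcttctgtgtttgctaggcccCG
Pcdh9 loss, chr14:94587691-94587786: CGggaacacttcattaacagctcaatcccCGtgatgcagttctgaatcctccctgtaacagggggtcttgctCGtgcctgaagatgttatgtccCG
Cdh15 gain, chr8:122836526-122836721: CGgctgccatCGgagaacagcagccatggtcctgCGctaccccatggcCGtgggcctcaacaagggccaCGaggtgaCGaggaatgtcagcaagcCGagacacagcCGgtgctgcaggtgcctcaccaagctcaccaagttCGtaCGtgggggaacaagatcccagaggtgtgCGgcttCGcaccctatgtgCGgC
Cdh15 gain, chr8:122851749-122851913: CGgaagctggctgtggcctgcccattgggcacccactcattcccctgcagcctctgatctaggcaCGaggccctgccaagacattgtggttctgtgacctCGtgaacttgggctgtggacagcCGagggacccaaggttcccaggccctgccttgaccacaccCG
Cdh26 loss near the TSS, chr2:178429470-178429539: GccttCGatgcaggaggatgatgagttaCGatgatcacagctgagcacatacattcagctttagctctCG
Cdh26 loss near the TSS, chr2:178431682-178431829: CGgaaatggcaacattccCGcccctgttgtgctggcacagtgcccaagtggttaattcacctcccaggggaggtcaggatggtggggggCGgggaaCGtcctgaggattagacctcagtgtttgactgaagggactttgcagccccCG

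These stretches differed widely in how many CpGs they held. The Cdh15 gain of 196 bp held 19 measured CpG cytosines, counted on each strand apart. The Cdh9, Cdh19, Cdh13 and Pcdh20 losses held 3 or 4. The Pcdh20 region was only 24 bp long, with a CpG at either end. Repeat sequence, as soft-masked in the reference, made up 95.4% of the Cdh9 region, 95.8% of the Pcdh9 region and 100% of the Cdh19 and Pcdh20 regions. It made up 0% of the Cdh13 region and 2.52% of the whole Cdh1 region.

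Methylation was lower in tumors at 192 member regions and higher at 11, so losses made up 94.6% (exact 95% interval over regions 90.5 to 97.3). In the whole list, losses made up 85.1% of 14176 regions and gains 14.9%. Among the 13973 other regions the share of losses was 84.9%. The median member difference was -25.0 points (interval -26.1 to -24.3), the median of the other regions was -23.9 points, and members ranged from -44.5 to 31.7. With each gene counted once, the share of losses was 84.9%, a count by gene that is unlike the list's 85.1% by region. Without the 5 genes of at least 10 regions the share over regions was 92.0%. Without the clustered protocadherins, many of which had a single region, it was 97.9%. Intervals cover the counting of regions only, and neighbouring regions of 1 gene are not independent of each other. Because every region entered the list through this same contrast, these values describe the list and were not tested.

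Differences of at least 30 points, the study's own minimum for a differentially methylated region, were found at 51 member regions (25.1%) in 26 genes, against 23.5% of all regions. Of these, 50 were losses, where losses made up 76.3% of all regions of that size. In the whole list, 18.0% of regions lost and 5.57% gained at least 30 points. Only 1 gain, at Pcdha11, reached that size. The largest member loss, at Cdh9, ranked 184 of 12059 losses, and the largest member gain ranked 680 of 2117 gains. At the lower edge, the smallest member differences were -20.27 at Pcdhb10, -20.29 at Pcdh18 and -20.29 at Cdh10, just past the list's minimum of 20 points. Around 30 points, a Cdh13 region at -29.9 lay just outside and a Cdh18 region at -30.1 just inside. The member regions held 1325 measured CpG cytosines, of which 680 (51.3%) were differentially methylated cytosines (DMCs), each called from reads by the authors, and 28 regions rested on 1 DMC.

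**Figure D1:**
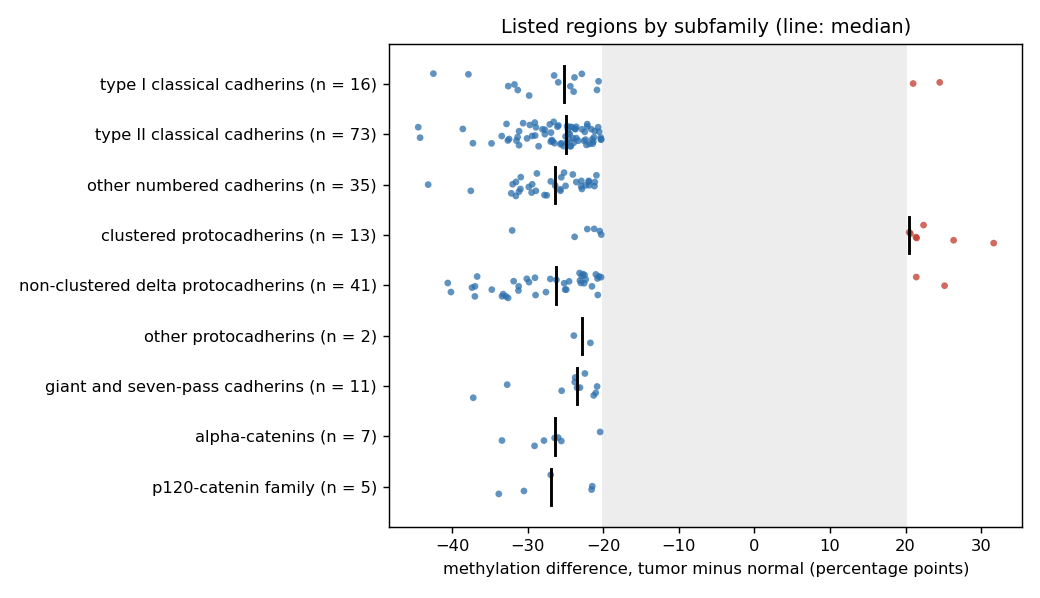
Methylation difference, tumor minus normal in percentage points, of each of the 203 member regions (points; blue, loss; red, gain; vertical jitter only separates points), by subfamily, with the median as a black line. Every subfamily lies on the loss side except the clustered protocadherins, 7 of whose 13 regions are gains, and a pair of gains each in the type I cadherins and the delta protocadherins; the grey band is the range below the list's minimum of 20 points.

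Numbered cadherins gave 124 regions in 19 genes, with 122 losses and 2 gains, and a median of -25.6 points. Protocadherins gave 56 regions in 20 genes, with 47 losses and 9 gains (83.9% losses, interval 71.7 to 92.4). Catenins gave 12 regions and Fat genes 11, all losses. In the whole list 85.1% of regions were losses, so the protocadherin share was near that of the list. Among members, 9 of the 11 gains were in the protocadherins, and 7 in the clustered genes. No region had its nearest TSS at a Celsr, Dchs or Clstn gene, at the widely expressed alpha-catenin gene Ctnna1, at the alpha-catulin gene Ctnnal1, or at p120-catenin itself (Ctnnd1). Such a gene may be unchanged, may not be covered, or may hold a region that lies nearer to the TSS of another gene.

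Type I classical cadherins, the strong adhesion molecules of epithelia, muscle and nerve, gave 16 regions in 4 genes, 14 of them losses. Cdh1 encodes E-cadherin, the main cadherin of epithelial junctions. Its 4 regions all lay in its own introns on chromosome 8 and were all losses. The nearest to the TSS, 4853 bp downstream and printed above, was at -42.5 points with 7 of 8 cytosines called DMCs. Next came -23.8 at 8324 bp and -23.9 at 13071 bp, resting on 1 and 2 DMCs. The fourth, 32398 bp downstream (chr8:106635766-106635883), was at -32.6 with 7 of 8 cytosines called. Both deep losses of Cdh1 were thus also the ones with the most called cytosines. Cdh2, which encodes N-cadherin, had 1 listed region, a loss of -31.7 points in intergenic sequence 347248 bp downstream, with 3 of 3 cytosines called. Cdh4, the gene of R-cadherin, had 4 losses between -31.3 and -24.4 points, all within the gene and 75.8 to 226 kb from its TSS.

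Cdh15, the gene of M-cadherin in muscle, was the one numbered cadherin with both directions, 5 losses and 2 gains along 52.6 kb. The gain of 24.5 points lay 11653 bp upstream, in a non-coding exon of a predicted gene or pseudogene, with 9 of 19 cytosines called. Genes and pseudogenes were not told apart when regions were annotated. The gain of 21.0 points lay in the first part of the gene, 3375 bp downstream, and rested on 1 DMC of 5. Within the same gene, 5071 and 6217 bp from the TSS, losses of -26.5 and -20.8 points followed, so both directions occurred within 3 kb of each other. The deepest, -37.8 points at 17984 bp, had 8 of 8 cytosines called. Beyond the gene a loss of -20.6 points rested on 1 DMC, and a loss of -22.8 points was listed 30364 bp upstream, inside a coding exon of Acsf3.

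Type II classical cadherins, most of them cadherins of the developing brain, gave 73 regions in 12 genes, and all 73 were losses (interval 95.1 to 100%). Their median was -25.0 points. They lay far from the TSS: the median distance to the TSS was 430821 bp, 54 regions were intergenic, 10 lay in another gene and 9 in the gene they were assigned to. 55 of the 73 lay over 100 kb away. In the whole list losses made up 95.8% of regions at 100 to 500 kb and 98.6% over 500 kb, near the share seen here. Cdh9, a synaptic cadherin, had 12 regions with a median of -26.3 points, from -44.5 to -20.7, and 7 of them were over 1 Mb upstream. Its own gene body held none of the 12. Cdh20 had 10 losses from -37.2 to -20.5 (median -24.4), 9 of them upstream, and all 10 were at least 50% repeat. Cdh6, the kidney cadherin, had 8 losses from -33.4 to -22.1 (median -24.6), 7 of them upstream and up to 1773 kb away.

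Cdh19, a cadherin of Schwann cells and their precursors, had 7 losses with a median of -28.9 points, and its deepest, -44.2, was second among all members. Cdh10 had 6 losses (median -24.0, from -38.6 to -20.3). Cdh8 had 5 (median -26.9, from -32.8 to -21.1), 4 of which lay in introns of the neighbouring gene A330008L17Rik. Cdh22, a cadherin of brain and pituitary, departed from the others of its type in position. Its 7 losses (median -23.8, from -29.4 to -21.4) all lay within 55.3 kb of the TSS, and 1 in a non-coding exon of the gene held 24 cytosines. None of the 7 was over 50% repeat, which also held for the 3 Cdh5 regions. Cdh11, the mesenchymal OB-cadherin, had 4 losses from -28.0 to -25.0 points, none inside the gene. Cdh5, the VE-cadherin of endothelial junctions, had 3 losses from -23.6 to -21.2, all intergenic and 61.9 to 246 kb upstream. Cdh7 and Cdh18 had 4 losses each and Cdh12 had 3, and none of these 11 was deeper than the -31.3 points of a Cdh7 region 115310 bp upstream.

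The other numbered cadherins were Cdh13, Cdh23 and Cdh26, with 35 regions that were all losses, where losses made up 85.1% of the whole list. 25 of the 35 lay in the gene itself, and 3 were at least 50% repeat, against 50 of 73 for type II. Cdh13 encodes T-cadherin, which is held in the membrane by a lipid anchor, lacks the tail that binds catenins and is a receptor for adiponectin. All 15 of its regions lay in its introns, spread over 487 kb, with a median of -26.9 points and a range from -43.2 to -20.9. The deepest, 253822 bp downstream of the listed TSS, had 4 of 4 cytosines called and is printed above. 3 regions lay upstream of the TSS that the list used yet within the annotated gene, which has starts further out. Cdh23, whose protein joins Pcdh15 in the tip links of inner ear hair cells, had 9 losses from -31.5 to -21.1 (median -25.2), 8 of them in its introns. The region with the most cytosines, 25 with 15 called, was at -27.8 points.

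Cdh26 had 11 losses, from -37.5 to -21.9 points with a median of -28.9. It was the only member gene outside the clustered protocadherins with regions within 2 kb of the listed TSS. 1 was at -21.9 points, 976 bp upstream in an intron of another gene, and rested on 1 DMC of 3. The other was at -29.4 points, 1167 bp downstream in the gene's own intron, with 5 of 7 cytosines called. Both are printed above, and neither held repeat sequence. A further 8 were intergenic, on the downstream side and up to 412 kb away, and the deepest of all 11, -37.5 points, lay 294217 bp downstream.

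**Figure D2:**
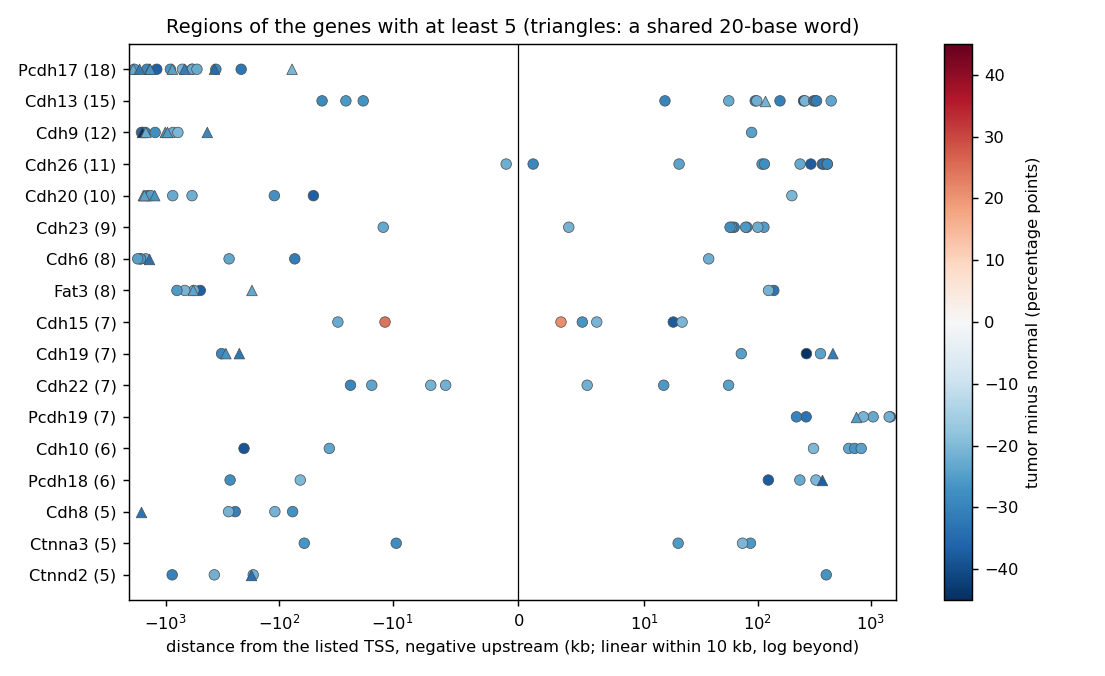
Position of every region of the 17 genes with at least 5, as distance from the listed TSS in kb (negative upstream; linear within 10 kb and logarithmic beyond), coloured by the tumor minus normal difference in percentage points; triangles hold a 20-base word shared by at least 10 member regions. Of these genes, 16 show losses only, the 18 Pcdh17 regions all lie upstream, and the 2 red points are the Cdh15 gains.

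Delta protocadherins, which with Pcdh15 were the members outside the protocadherin gene clusters, gave 41 regions in 7 genes, 39 of them losses (95.1%, interval 83.5 to 99.4), with a median of -26.2 points. Their median distance to the TSS was 468749 bp, and in the whole list 95.8% of regions at 100 to 500 kb were losses. 34 of the 41 were intergenic, and the median share of repeat sequence was 95.8%. Pcdh17, a protocadherin of developing synapses, had more regions than any other member gene. Its 18 losses ran over 1861 kb, all upstream, from 77037 bp to 1938 kb away, with a median of -28.0 points and a range from -37.0 to -20.6. None lay in the gene itself, and 14 were at least 50% repeat. Pcdh19, an X-linked gene mutated in a human epilepsy, had 7 intergenic losses downstream (median -25.2, from -33.2 to -21.0). Pcdh18 had 6 (median -25.1, from -37.4 to -20.3).

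Pcdh20 and Pcdh9 had 3 losses each, and each held one of the 8 deepest member regions. The Pcdh20 region at -40.6 points and the Pcdh9 region at -40.2 points, both printed above, had every measured cytosine called. Pcdh7 had 1 loss of -31.2 points in its own gene, with 6 of 9 cytosines called. Outside the delta group, Pcdh15, the partner of Cdh23 in the tip link, had losses of -23.9 and -21.7 points in its introns, each on 1 DMC of 4. Pcdh1, a protocadherin of epithelia, was the only delta protocadherin with gains, though none of its 3 regions lay in the gene itself. The region of its larger gain was 77.7% repeat. Its gains of 25.2 points at 28132 bp and 21.4 points at 33665 bp downstream each rested on 1 DMC of 3, while its loss of -22.5 points at 86825 bp had 6 of 16 cytosines called.

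The clustered protocadherins stood apart from the other members in direction, position and CpG content. Their genes lie side by side on chromosome 18: each Pcdha or Pcdhg gene adds its own first exon, with its own promoter, to shared last exons, while each Pcdhb gene is a single exon. Neurons switch on different sets of them, which gives cells distinct surfaces. Here 13 regions were listed for 12 of these genes, between 37011156 and 37822165 of chromosome 18, and no other listed region lay in those 811 kb. 6 were losses and 7 were gains (46.2% losses, interval 19.2 to 74.9). Of the 10 protocadherin regions within 2 kb of a TSS, all of them clustered, 3 were losses (30%, interval 6.67 to 65.2). Among non-member regions within 2 kb the share of losses was 66.9%.

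All 6 regions of 5 Pcdhg genes were gains and all 5 regions of Pcdhb genes were losses, while the Pcdha group had 1 of each. The Pcdhg regions also lay nearer to their TSS, at 0 to 1745 bp, than most of the Pcdhb regions, at 1313 to 14175 bp. The Pcdhg gains were dense in CpG and of similar size, with a median of 21.4 points, close to the list's minimum of 20. None of the Pcdhg gains reached 30 points. They measured 21.5 points at Pcdhga1 (23 bp from the TSS, 10 of 25 cytosines called), 21.4 at Pcdhga2 (over the TSS, 5 of 13) and 20.6 at Pcdhgb4 (810 bp, 9 of 21). At Pcdhga8 the gain was 22.4 points (53 bp, 12 of 29), and Pcdhgc5 had gains of 20.5 points (250 bp, 2 of 8) and 26.4 points (1745 bp, 18 of 36). All 6 overlapped coding exons, as did the Pcdha11 gain of 31.7 points, 298 bp downstream, which rested on 2 DMCs of 3 cytosines.

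The Pcdhb losses, with a median of -22.1 points, were also close to the list's minimum except for 1. Inside coding exons, Pcdhb10 was at -20.3 points (1313 bp downstream, 1 of 6 called), Pcdhb15 at -20.5 (1916 bp, 1 of 7) and Pcdhb20 at -22.1 (1504 bp, 4 of 6). Upstream of their genes, Pcdhb21 was at -23.8 (3426 bp, 1 of 4) and Pcdhb9 at -32.1 (14175 bp, 2 of 3, 99.2% repeat). Pcdhac1 had a loss of -21.2 points in an intron 26193 bp downstream that was 100% repeat. Of the 10 clustered regions in coding exons, 7 were gains, against 451 of 1383 non-member regions in coding exons. The ratio of observed to expected CpG around clustered regions had a median of 0.503, against 0.248 for all regions. For non-member regions within 2 kb of a TSS it was 0.289. Reads were kept only where they had a unique best hit, and since genes of a cluster resemble each other, the part that misplaced reads had in these values was not tested.

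**Figure D3:**
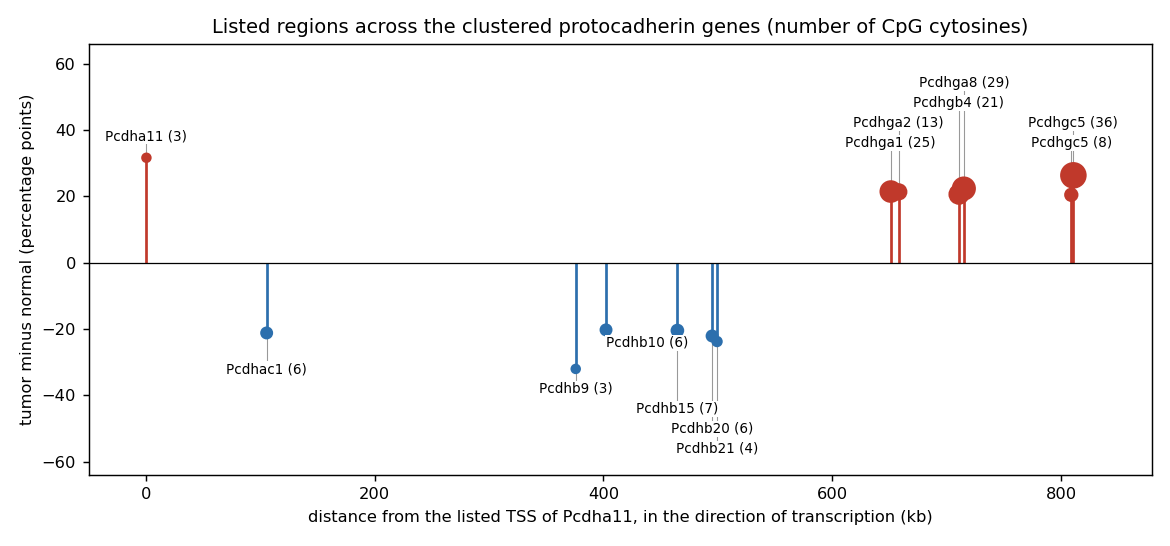
Difference in percentage points (vertical axis) of the 13 clustered protocadherin regions against distance in kb from the listed TSS of Pcdha11, in the direction of transcription; dot area grows with the number of CpG cytosines, which is in brackets after the gene. The Pcdhg regions at the right end are all gains between 20.5 and 26.4 points with 8 to 36 cytosines, and the Pcdhb regions in the middle are all losses with 3 to 7.

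Fat genes encode very large cadherins that steer cell polarity and growth. Fat3, which shapes neurons in the retina, had 8 losses with a median of -23.6 points, from -37.2 to -21.0, of which 6 lay upstream at up to 799 kb and 2 in its introns. Fat1 had 1 loss of -20.8 points 262973 bp upstream, Fat2 1 of -23.7 points 29794 bp upstream on 1 DMC of 4, and Fat4 1 of -23.1 points 94104 bp upstream. All 3 of these were intergenic.

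Among catenins, Ctnna3 encodes the alpha-catenin best known from heart muscle junctions. Its 5 regions were losses in its own introns, at -25.5, -26.0, -26.4, -27.8 and -20.4 points along 417 kb, with 1 to 3 DMCs each. Ctnna2, the neuronal alpha-catenin, had losses of -33.4 points (9 of 11 cytosines called) and -29.1 points (2 of 3), both intergenic, upstream and 100% repeat. Ctnnd2, a brain relative of p120-catenin, had 5 losses from -33.8 to -21.5 points with a median of -26.9. 4 of them lay 170 to 879 kb upstream and 1 in the gene, 402332 bp downstream. The median over the 12 catenin regions was -26.7 points, close to that of the numbered cadherins.

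Listed regions inside a member gene but nearer to the TSS of another gene were looked up as well, by the annotated span of each gene, since the rule leaves them out. There were 61 such regions in 17 genes, 60 losses and 1 gain. The deepest, -42.3 points with 3 of 3 cytosines called, lay in an intron of Pcdh11x, a gene with no member region. Cdh12 held 4 losses from -38.6 to -22.1 points, deeper at most than its member regions. Cdh4 held 13 of them beside its 4 members, so all 17 regions within R-cadherin's gene were losses, the deepest at -41.3 points. Cdh23 held 9 more and Cdh13 7 more, all losses. Ctnna3 held 8 more, all losses in its introns with Lrrtm3 as the nearest TSS, the deepest at -32.5 points with 8 of 9 cytosines called. Clstn2, a calsyntenin of synapses, held 5 losses from -29.8 to -21.8 points, and Clstn1, Celsr1 and Celsr2 held 1 loss each, of -27.5, -21.3 and -26.4 points. The single gain, 28.0 points with 4 of 6 cytosines called, lay in an intron of Clstn3. No listed region lay within the annotated spans of Fat1, Fat2, Fat4, Ctnna1, Ctnnal1, Ctnnd1 or the Dchs genes.

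Position relative to the TSS separated the directions. Within 2 kb of a TSS, 5 of 12 member regions were losses (41.7%, interval 15.2 to 72.3), against 66.6% of all regions at that distance. At 2 to 20 kb 20 of 22 were losses (90.9%, list 75.6%), and at 20 to 100 kb 41 of 43 (95.3%, list 84.8%). All 68 regions at 100 to 500 kb and all 58 over 500 kb were losses, where the list had 95.8% and 98.6%. The near class was nearly all clustered protocadherins: without them 2 regions were left within 2 kb, both Cdh26 losses, and within 20 kb 20 of 22 were losses (90.9%).

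**Figure D4:**
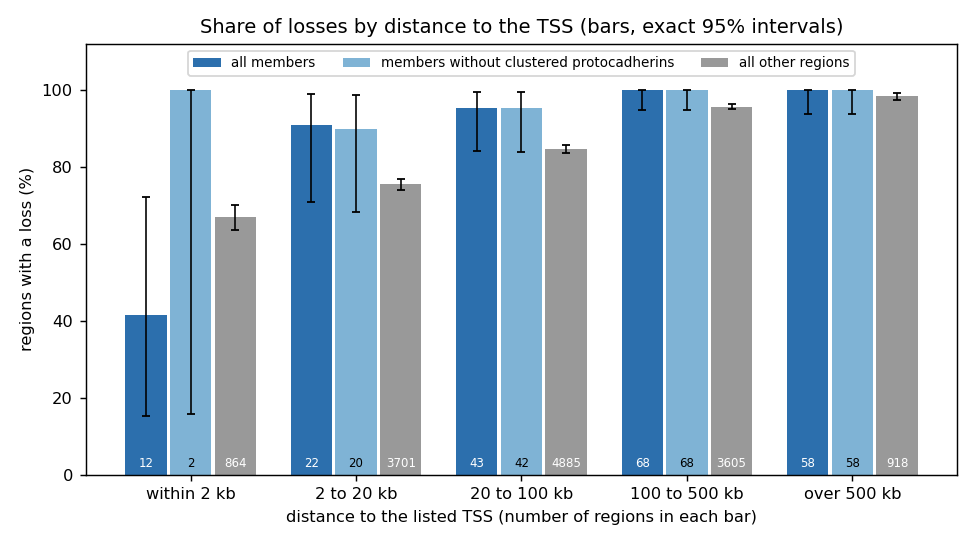
Share of regions with a loss (bars starting at 0, in percent, with exact 95% intervals that cover counting of regions only) by distance to the listed TSS, for all members, for members without the clustered protocadherins and for all other regions, with the number of regions in each bar. Member losses rise from 41.7% within 2 kb to 100% beyond 100 kb, and the low first bar rests on the clustered protocadherins.

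Members lay further from a TSS than the list. Their median distance was 223259 bp, against 46767 bp for the other regions, and 28.6% of members but 6.57% of the others lay over 500 kb away. Without the 5 genes of at least 10 regions the member median was 115310 bp, and over regions inside the annotated span of a member gene it was 76987.5 bp. Most member regions lay outside the gene they are named for: 114 were intergenic (56.2%, others 46.1%), 20 lay in another gene and 69 in the gene itself. Of the 69, 61 were losses. Over 100 kb, the 126 member regions had a median of -26.4 points and the other regions -25.1. At 100 to 500 kb 38.2% of member regions, but 20.8% of the others, had lost or gained at least 30 points. In every other distance class the member share was the lower. It was 8.33% against 25.9% within 2 kb and 13.6% against 25.4% at 2 to 20 kb. At 20 to 100 kb it was 16.3% against 22.9%, and over 500 kb 24.1% against 27.7%. Over 500 kb the median was -25.2 points for members and -26.1 for the others. Gains were the near ones: the 11 gains had a median distance of 810 bp and a median of 13 cytosines, where the 192 losses had 245057 bp and 5.

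**Figure D5:**
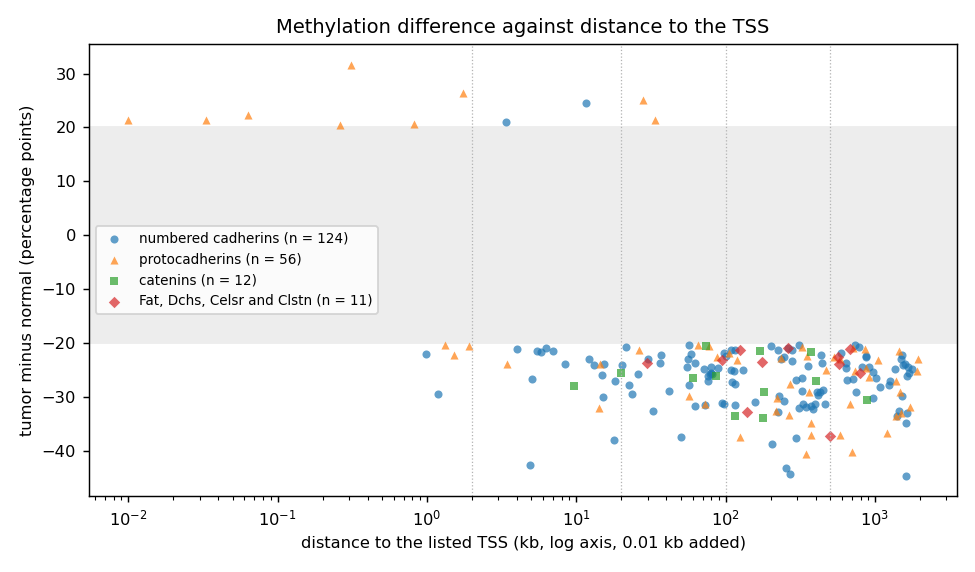
Difference in percentage points (vertical axis) against the distance of each member region to its listed TSS in kb (logarithmic axis, with 0.01 kb added so that a region over its TSS can be shown), by group; dotted lines mark 2, 20, 100 and 500 kb. All gains lie within 33.7 kb of a TSS, and losses of every group reach beyond 500 kb; the grey band is the range below the list's minimum.

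Repeat content was high. The median member region was 47.9% soft-masked, the median of the others 10.2%. At least 50% was masked in 100 members (49.3%), 99 of them losses, and in 27.0% of the others, of which 97.0% were losses. Among regions over 100 kb from a TSS the shares were 68.3% for members and 47.6% for the others. The subfamilies differed: the median was 0% masked for the group of Cdh13, Cdh23 and Cdh26, 1.84% for type I cadherins and 2.63% for clustered protocadherins, but 89.7% for type II cadherins and 95.8% for delta protocadherins.

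Many of these repeats were copies of the same sequence. A search of all 20-base words, read on both strands, found 61 words that occurred in at least 10 member regions each, a measure chosen after the member sequences had been seen. 30 member regions of 14 genes (14.8%) held at least 1 such word, against 5.44% of the other regions; the words had been picked on the members, so this gap is partly built in. All 30 were losses, from -44.5 to -20.6 points with a median of -27.0, and so were all 790 regions of the list that held one. Of these 790, 786 were at least 50% repeat, and 97.0% of all non-member regions with that much repeat were losses. Among the 30 member regions, 8 were Pcdh17 regions, 5 were Cdh9 regions and 3 each belonged to Cdh19 and Cdh20. A pair of the most frequent words is shown, because copies of them tie together regions assigned to different cadherin genes.
Word 1: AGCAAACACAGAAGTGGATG
Word 2: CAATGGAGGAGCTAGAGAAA

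Word 1 occurred in 14 member regions of 8 genes and in 347 listed regions (2.45%), all losses, and had 41095 copies on the assembled chromosomes. Word 2 occurred in 13 member regions of 9 genes and in 335 listed regions (2.36%), all losses, with 51383 copies. The 173 member regions with none of the 61 words had 93.6% losses and a median of -24.7 points, where the other regions with none had 84.1% losses and -23.7 points. How well reads from such copies can be placed was not tested.

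Partners of these proteins outside the rule were counted from lists of junction, desmosome and planar polarity genes. Of 25 names listed as junction partners, 9 had 25 regions, with 22 losses and 3 gains. The names hold each nectin gene under both an older and a newer name, so fewer genes were looked up. In the whole list, 85.1% of regions were losses. Jup, the gene of plakoglobin, which takes the place of beta-catenin in desmosomes, had losses of -53.5 and -27.9 points in its introns. Vcl, the gene of the actin-binding protein vinculin, had a gain of 49.9 points in an intron with 6 of 6 cytosines called. Pkp3, a desmosomal relative of p120-catenin, had gains of 34.1 points 55 bp from its TSS (28 of 33) and 26.7 points 6124 bp upstream. No region was listed under the beta-catenin gene Ctnnb1. Of 15 desmosomal and related genes, Dsc3 and Ret had 11 regions with 10 losses. The only gain, 28.8 points, lay over the TSS of the desmosomal cadherin gene Dsc3, whose 8 losses all lay 288 to 1152 kb downstream. Of 11 polarity partners, 4 had 6 regions with 5 losses and 1 gain, the latter of 20.5 points at Dvl3.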

How the data were processed

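RRBS was done on 3 normal livers and 3 liver tumors. Per the paper's methods and the labels, the authors trimmed reads with Trim Galore, aligned pairs to mm10 with Bismark keeping unique best hits, counted C and T reads per strand with methylKit, and called DMCs by logistic regression (q-value below 0.01, coverage of at least 10, difference of at least 25 points). Regions were built with eDMR and paired with the nearest RefSeq TSS with bedtools 2.25.0, as the submitters' processing notes give it. For the other tools, versions were not given in the sources used here. Per region, the table that the authors deposited lists the mean difference in percent methylation, the CpG cytosines, the DMCs and the nearest TSS. It has no value per animal and no coverage, so depth is unknown beyond the authors' minimum, no test across the 6 samples was possible, and any spread between replicates is not shown.

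Members and lists were chosen with earlier results of these data known. Named with values are regions within 2 kb of a TSS, the 8 largest losses and gains, genes with at least 5 regions or both directions, every catenin and Fat gene, and regions at the list's edge; other regions named are examples chosen after their values were seen. Deposited starts count from 0 (100% lay in a CpG after adding 1, 13.9% as given), so 1 was added. Annotation and soft-masking came from RefSeq GRCm38. Side was set from the strand of the listed TSS, which equalled an annotated transcript start for 120 of 203 member regions. In 148 member regions the cytosines outnumbered the CpG dinucleotides, since strands were counted apart. Python 3.11.15, pandas 2.3.3, numpy 2.4.6 and scipy 1.17.1 were used, with exact binomial intervals at 95% and order-statistic intervals for medians, after the scripts had been tested on simulated data. The ratio of observed to expected CpG was computed over each region with 500 bp on either side.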

Additional observations from a re-analysis of the deposited data

How the results depend on the processing

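Of 69 alternatives over 9 results, 49 stayed within the interval of the reported value and 20 moved. Only the median difference could change sign, since shares and distances have none, and it stayed negative under each of its alternatives. The share of losses over all members (94.6%) became 98.0% at a minimum of 30 points, 84.9% with each gene counted once (list 85.1%), 90.3% in regions under 50% masked and 97.9% without the clustered protocadherins. For numbered cadherins (98.4%) it became 100% at minimums of 25 and of 30 points. For protocadherins (83.9%) it became 94.1% at 30 points, 66.7% with each gene counted once, 58.8% in the 17 regions inside an annotated gene span, 61.9% under 50% masked and 95.3% without the clustered genes. Within 20 kb (73.5%) it became 50% when the limit was 5 kb and 90.9% without the clustered genes. The median difference (-25.0 points) became -24.2 with at least 5 cytosines and -27.5 with at least 3 DMCs. It became -29.8 at 25 points and -32.6 at 30 points, where the filter acts on the difference itself, so a deeper median was built in. The median distance (223259 bp) became 294217 bp at 30 points, 76987.5 bp when regions were assigned by annotated span and 115310 bp without the 5 genes of at least 10 regions. The sets without clustered genes and without genes of many regions were chosen after seeing the data. Assignment by annotated span gave 130 regions in 35 genes, of which 121 were losses and 69 were also members. No paired analysis was possible because the table holds no value per sample, and for the same reason no replicate could be left out.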

Other observations

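Marker genes of liver cell types, taken as lists, also had regions in the table, which gives no level of these genes. Of 4 endothelial genes, Kdr, Pecam1 and Stab2 had 8 regions, all losses, from -30.6 to -21.3 points. Losses made up 85.1% of all listed regions. Of 5 hepatocyte genes, Apoa1 and Cps1 had 4 regions. A gain of 28.9 points lay 31.1 kb upstream of Apoa1, in an intron of Sik3, and a gain of 29.5 points in an intron of Cps1. The 2 losses listed under Cps1 lay 890 and 917 kb downstream, the farther in a coding exon of Erbb4. Of 5 stellate cell and fibroblast genes, Col1a1 had a gain of 27.5 points in a coding exon, and Col1a2 and Des had losses of -20.1 and -23.2 points. Of 4 cholangiocyte genes, Epcam and Krt7 had losses of -20.1 and -23.0 points, and 0 of 5 leukocyte genes had a region. Whether these differences come with a change in the mixture of cells was not tested.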
